A study of Mus musculus with 18 samples.

Results

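Nascent transcription of 10 genes of the primitive streak and of early mesoderm was described in mouse embryonic stem (ES) cells: T, Mixl1, Mesp1, Gsc, Tbx6, Meox1, Foxc1, Hand2, Kdr and Tal1. They were chosen by name, from the known roles of the genes, and with earlier results of these data known. All 10 were found by symbol among the 21859 rows of the gene table, with T listed under that symbol. Of the same 10 genes, 8 also had a row among the 32253 rows for promoter upstream transcripts (PROMPTs), which are short non-coding RNAs transcribed away from a gene on the opposite strand; Gsc and Hand2 were not matched to such a row and their PROMPTs were not analysed here.

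The study asked how loss of SPT16, a subunit of the histone chaperone FACT, alters transcription in E14 ES cells, which it read by transient transcriptome sequencing (TT-seq), a method that labels newly made RNA with 4-thiouridine for 5 min and sequences the labelled fraction. The labels give 6 groups of 3 libraries each, 18 in all. Untagged_EtOH and Untagged_3-IAA cells carried the plant F-box protein osTIR1 but no degron, whereas SPT16_AID_V5_Clone1 and SPT16_AID_V5_Clone2 cells, a pair of homozygous clones of the same parent, carried osTIR1 and a mini-AID and V5 tag at the C terminus of endogenous SPT16. Every group was treated for 24 h, either with ethanol as vehicle (0.1%) or with 3-indole acetic acid (3-IAA), the auxin through which osTIR1 marks a tagged protein for degradation; its dose is 500 nM in the labels and 500 µM in the methods. All cells were grown without feeders in serum with LIF and inhibitors of GSK and MEK, a medium used to keep ES cells undifferentiated. The paper nonetheless reports signs of differentiation in the tagged clones by the end of the auxin treatment, with reduced transcription of pluripotency factors. These cells gave the groups SPT16_AID_V5_Clone1_3-IAA and SPT16_AID_V5_Clone2_3-IAA, with 3 libraries each. A mean that pools these libraries with the others does not describe undifferentiated cells alone.

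The values described here are the means over libraries that were deposited with each row, the DESeq2 baseMean: normalized counts averaged over the libraries that entered the authors' fit. Which libraries these were is not given in the sources used here. Each gene therefore has 1 value, with no value per library, no SD and no n, and the mean is not split by group. How any of the 10 genes differed between groups cannot be read from it and is not reported. In such bulk samples fewer cells transcribing a gene and less RNA per cell cannot be told apart.

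The depth behind the means was read from the rows that hold a single read in a single library. The gene table held 18 such values, from 0.0216 to 0.115, as many as there are libraries. The limits that picked these values were set after the values were seen, so their number is no independent check. Read in this way, 1 read weighed 5.34 times more in the shallowest library than in the deepest. A baseMean divided by these limits bounds the whole reads behind it, and it covers no error between libraries. Reads were found in 20157 of the 21859 genes (92.2%), with a median baseMean of 421 among those and of 273 over every row.

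During gastrulation, epiblast cells move through the primitive streak and become mesoderm and endoderm. Nodal, Wnt and BMP signals switch on T-box and homeobox factors in the streak, and the mesoderm that leaves it is then divided into axial, paraxial and lateral plate parts, the last of which gives rise to heart, blood and vessels. Undifferentiated ES cells precede all of these states, and the promoters of many such developmental regulators are known to be rich in CpG and to carry Polycomb marks in them. T (Brachyury) is a T-box factor of the streak and notochord, Mixl1 and Gsc are homeobox factors of the streak and its anterior end, and Mesp1 is a basic helix-loop-helix (bHLH) factor of the first cardiac mesoderm. Tbx6, Meox1 and Foxc1 are T-box, homeobox and forkhead factors of the paraxial mesoderm and somites. Hand2 is a bHLH factor of the heart and limb bud, Kdr encodes the VEGF receptor of mesodermal and endothelial progenitors, and Tal1 is a bHLH factor of blood formation.

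The promoters of 4 of these genes are shown as examples that differ in CpG content and in core promoter motifs, which are described further on. They are RefSeq sequences of build GRCm38.p6, written 5′ to 3′ on the strand of the gene, and end before the first annotated exon. T lies on the + strand (chr17:8434173-8434422), Tbx6 on the + strand (chr7:126781233-126781482), Kdr on the − strand (chr5:75978459-75978705) and Foxc1 on the + strand (chr13:31806396-31806632). Capitals mark matches to a TATA box, CCAAT box, GC box or homeodomain core, on either strand.
T: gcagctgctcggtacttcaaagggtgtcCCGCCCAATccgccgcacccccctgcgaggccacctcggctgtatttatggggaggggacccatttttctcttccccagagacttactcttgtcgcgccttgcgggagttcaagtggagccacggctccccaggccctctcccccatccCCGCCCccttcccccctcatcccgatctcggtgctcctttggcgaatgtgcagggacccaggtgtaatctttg
Tbx6: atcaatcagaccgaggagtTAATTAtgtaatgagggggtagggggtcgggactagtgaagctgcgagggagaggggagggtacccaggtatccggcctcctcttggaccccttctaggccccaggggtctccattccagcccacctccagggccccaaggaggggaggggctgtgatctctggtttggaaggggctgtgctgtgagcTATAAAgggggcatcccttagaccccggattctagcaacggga
Kdr: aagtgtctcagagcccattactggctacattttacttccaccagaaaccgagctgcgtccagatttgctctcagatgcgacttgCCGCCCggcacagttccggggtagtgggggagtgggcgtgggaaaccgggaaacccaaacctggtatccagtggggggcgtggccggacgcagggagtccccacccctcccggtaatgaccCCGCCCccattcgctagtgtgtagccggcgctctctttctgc
Foxc1: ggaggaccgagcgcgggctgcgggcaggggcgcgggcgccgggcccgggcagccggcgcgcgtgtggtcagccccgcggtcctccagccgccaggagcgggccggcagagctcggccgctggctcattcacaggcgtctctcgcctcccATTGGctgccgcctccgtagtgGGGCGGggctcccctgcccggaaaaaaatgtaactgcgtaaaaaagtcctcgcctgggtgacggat
The T sequence holds a CCAAT box that overlaps a GC box 222 bases before the start and a second GC box 73 bases before it. The Tbx6 sequence holds a TATA box 43 bases and a homeodomain core 231 bases before the start and no GC box. Kdr has GC boxes 166 and 45 bases before its start, and Foxc1 an inverted CCAAT box at 101 and a GC box at 79 bases. These positions are counted from the RefSeq start. The last printed base lies at position -14 for Foxc1, -4 for Kdr and -1 for T and Tbx6.

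All 10 genes had reads, and per kb of exons all 10 lay below the median of the genes with reads; per kb of gene span T and Tbx6 lay slightly above it, at percentiles 51.7 and 53.3. The median baseMean of the 10 was 12.3, with a range from 3.28 to 208, and together they summed to 523. Per kb of exons their median level was 4.41, and the median of all genes with reads, 120, was 27.3 times as high. That places the median of the 10 genes at percentile 24.6 of the 20140 genes with reads and a length. The limit of 100 in baseMean was passed by 3 of the 10 genes (30%), T, Tbx6 and Kdr, and by 57.3% of all genes, and these 3 held 84.5% of the sum over the 10. None of the 10 reached 1000, which 37.3% of all genes did.

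The level of T was the highest of the 10 per kb of exons. T (ENSMUSG00000062327, chr17:8434423-8442496, + strand, 8 exon blocks) had a baseMean of 208, from 1801 to 9613 reads in all libraries together, and 89.6 per kb of exons, at percentile 47.0. Among the streak factors it was followed by Gsc (ENSMUSG00000021095, chr12:104471209-104473330, − strand), with a baseMean of 34.9 and 27.5 per kb, at percentile 37.0. The other two streak factors were lower still. Mixl1 (ENSMUSG00000026497, chr1:180693043-180697034, − strand) had a baseMean of 13.1, or 5.71 per kb, at percentile 26.1. Mesp1 (ENSMUSG00000030544, chr7:79792241-79793788, − strand), the shortest of the 10 genes with a span of 1548 bp, had a baseMean of 3.73 from 33 to 172 reads, or 2.92 per kb. The 4 streak factors thus spanned most of the range of the 10 genes, from T, near the median of all genes, to Mesp1 at percentile 22.0.

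The 3 paraxial factors also lay far apart. Tbx6 (ENSMUSG00000030699, chr7:126781483-126785560, + strand, 8 exon blocks) had a baseMean of 124, from 1074 to 5732 reads, and 68.6 per kb of exons, at percentile 44.6, next to T. Meox1 (ENSMUSG00000001493, chr11:101877510-101894374, − strand) had a baseMean of 6.95 and 3.12 per kb, at percentile 22.4. Foxc1 (ENSMUSG00000050295, chr13:31806633-31812476, + strand), a gene with a single exon of 5844 bp, had a baseMean of 11.6 and 1.98 per kb, at percentile 19.7. Tbx6 was thus the only paraxial factor among the 10 with a level close to that of T.

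The lateral plate, blood and endothelial genes were lower than T and Tbx6. Kdr (ENSMUSG00000062960, chr5:75932827-75978458, − strand) had a baseMean of 111, from 960 to 5122 reads, but it is also the longest of the 10 genes, with 29 exon blocks and 9030 bp of exons, and its level per kb was 12.2, at percentile 31.2. Tal1 (ENSMUSG00000028717, chr4:115056426-115071755, + strand) had a baseMean of 7.69 and 1.76 per kb, at percentile 19.1. Hand2 (ENSMUSG00000038193, chr8:57320983-57324633, + strand) had the lowest value of the 10 on both scales, with a baseMean of 3.28 from 29 to 152 reads and 1.40 per kb of exons, at percentile 17.8. T was 64.2 times as high as Hand2 per kb of exons.

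Without values per library no spread can be set against this order. The closest neighbours in it were Meox1 and Mesp1, which differed 1.07 times, Foxc1 and Tal1 with 1.13 times, Tal1 and Hand2 with 1.26 times and T and Tbx6 with 1.31 times. The steps from Tbx6 to Gsc (2.50 times), from Gsc to Kdr (2.24 times) and from Kdr to Mixl1 (2.15 times) were the widest. Because TT-seq also reads introns and the sources used here do not give whether counts were taken over exons or whole genes, the levels were also divided by gene span. Of the 45 pairs of genes 38 then kept their order. The percentiles given for each gene above are per kb of exons, and all but that of Meox1 were higher per kb of span. They were then 47.6 for Gsc, 35.5 for Mixl1, 33.6 for Mesp1 and 32.2 for Foxc1. Per kb of span Tbx6 (30.3) lay above T (25.7), Kdr (2.42) below Mixl1 (3.28), and Meox1 (0.412), with 16865 bp mostly of intron, took the last place below Tal1 (0.501) and Hand2 (0.900).

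**Figure D1:**
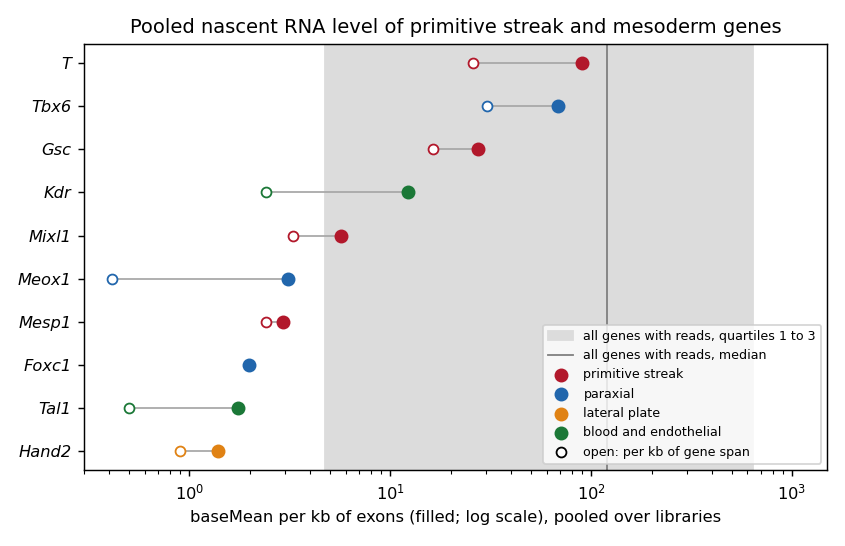
Pooled level of each of the 10 genes, as baseMean per kb on a log axis, per kb of exons (filled points) and per kb of gene span (open points), coloured by the tissue the gene marks. The shaded band and line give the quartiles and median of all genes with reads per kb of exons; all 10 filled points lie left of the median of 120, and T and Tbx6 lie closest to it.

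The 2 genes nearest to each of the 10 in level per kb of exons were taken from the whole table, where the likeness is a log2 difference over 1 pooled value and amounts to at most 0.0020. They were Tesc and Siae for T, Lct and Synj2 for Tbx6, Gsg1l and Abca16 for Gsc, Gm20696 and F2rl3 for Kdr, and Gcnt3 and Slc40a1 for Mixl1. For the lower genes they were Fcgbp and Lrit3 for Meox1, Cryga and Lnp1 for Mesp1, Spo11 and Tmem255b for Foxc1, Tas1r2 and Tcp10c for Tal1, and Pik3c2g and Spata9 for Hand2. Some of these are known from other tissues, such as Lct, the lactase of the intestine, Cryga, a crystallin of the lens, Tas1r2, a taste receptor, and Spo11, the nuclease of meiotic breaks. These examples were picked by name, and the other nearest genes were not sorted by tissue.

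The cells were checked against lists of marker genes. All 10 ES cell genes listed had a baseMean of at least 100 and 8 had at least 1000, with the factors Tfcp2l1 (72140) and Esrrb (64437) highest and Utf1 (248) and Dppa3 (135) lowest. Per kb of exons the median of the ES cell genes was 3142, 712 times that of the 10 mesoderm genes. The 8 fibroblast genes had a median of 1.62 per kb, with Pdgfrb, a receptor also found in mesoderm (baseMean 952), and Thy1 (25.7) highest and Dcn (1.97) and Postn (0.118) lowest. The part of fibroblasts or of differentiating cells, such as the tagged clones after auxin, in the levels of these lists and of the 10 genes was not tested.

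A further 46 genes of the same tissues, kept in 4 lists, gave the surroundings of the 10. Of these 46 genes 44 had reads and 12 (26.1%) passed the limit of 100, a share near the 3 of 10 above, and the median of those 44 per kb of exons was 10.5 (9.64 with the 2 genes at 0), against 4.41. Per kb of exons T and Tbx6 each lay above 41 of the 46, Gsc above 33 and Kdr above 25, whereas Hand2 lay above 10. Their places per kb of gene span were not tested. In the streak list of 10 genes, the median was 3.42 per kb; Eomes, a T-box factor of the streak (baseMean 199), and Chrd, a BMP antagonist (125), were highest, and Noto (1.01) and Cer1, a Nodal antagonist (0.645), lowest. T had a higher level per kb of exons than any of these 10.

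In the paraxial list of 13 genes the median was 6.66 per kb, and 9.74 over the 12 with reads. Tcf15, a bHLH factor of somites that is also known from ES cells, was highest (baseMean 632), before the Notch ligand Dll1 (131), while Myf5, a factor of muscle, stood at 0.277 and Foxc2, the close relative of Foxc1, was listed at 0. The lateral plate and cardiac list of 11 genes had a median of 10.0 per kb, and of 15.6 over the 10 with reads, with the heart factors Gata4 (455) and Tbx20 (341) highest, Hand1, the close relative of Hand2, at 3.26 and Foxf1 listed at 0. The blood and endothelial list of 12 genes had the highest median of the 4, 20.5 per kb, with the adhesion molecule Pecam1 (13200.5), which ES cells are known to express, and the blood factor Runx1 (665) highest and Sox17 (10.2) and Cdh5, the cadherin of endothelium (7.66), lowest. Kdr and Tal1 both lay below that median. All these medians are per kb of exons, and the lists differ more in gene span than in exon length. The median span was 33390 bp in the blood and endothelial list and 33594 bp in the lateral plate and cardiac list. It was 5555 bp in the streak list and 5537 bp in the paraxial list. Median exon lengths ran from 2435.5 bp (streak) to 4457.5 bp (blood and endothelial). The part of intron length in the order of the lists was not tested.

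**Figure D2:**
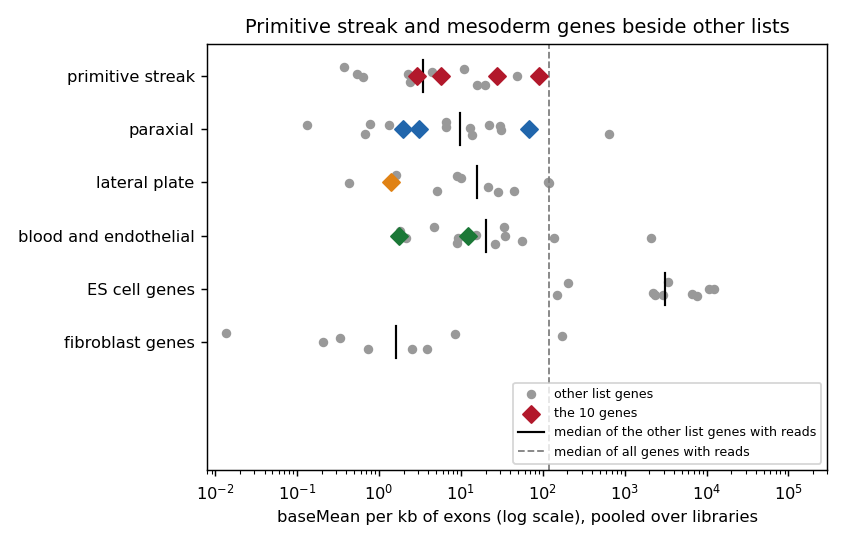
Level per kb of exons, as pooled baseMean on a log axis, of the 10 genes (diamonds) and of the other genes of each list that had reads (grey points), with the median of the grey points (black bar) and of all genes with reads (dashed line). T, at 89.6, lies right of every other gene of the streak list, Kdr and Tal1 lie left of the median of 20.5 of the blood and endothelial list, and all 10 diamonds lie left of every ES cell gene.

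Upstream transcription was then compared with transcription of the gene itself. The gene and PROMPT tables were normalized separately, with 18 single-read values from 0.0266 to 0.129 in the PROMPT table and summed size factors of 19.9 and 20.5, so ratios between the tables are on close but not equal scales. All 8 PROMPTs had reads, as did 72.1% of all PROMPT rows, and 4 of the 8 had a baseMean of at least 1, against 33.7% of all rows. The PROMPT of Tbx6 stood apart from the other seven. Its baseMean was 31.8, from 247 to 1193 reads, at percentile 94.0 of the PROMPTs with reads; it made up 80.8% of the sum over the 8 and was 14.8 times the next highest, that of Mixl1 (2.14). The PROMPTs of Mesp1 (1.97) and T (1.95), both from 16 to 73 reads, were close to that of Mixl1, although the gene levels of these 3 factors differ widely.

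The remaining PROMPTs were near the lower limit of the data. That of Kdr had a baseMean of 0.736 from 6 to 27 reads and that of Foxc1 0.536 from 5 to 20 reads. The value of the Meox1 PROMPT, 0.144, corresponds to between 2 and 5 reads, and that of the Tal1 PROMPT, 0.0713, to 1 or 2 reads in all libraries together. For Tal1 the only match by the single-read values was 2 reads in 1 library. The ratios of these PROMPTs to the gene, 2.07% for Meox1 and 0.928% for Tal1, thus rest on a handful of reads.

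Set against its gene, the PROMPT level was 0.938% for T and 0.666% for Kdr, near the median of 0.700% over the 4300 pairs whose gene baseMean lay in the same range as the 10 genes. It was 4.62% for Foxc1, 16.4% for Mixl1, 25.7% for Tbx6 and 52.8% for Mesp1, at percentiles 75.9, 88.2, 90.9 and 94.6 of these pairs. Mesp1, the lowest of these 8 genes in baseMean, had the highest share upstream, whereas T, with the highest gene level, lay at percentile 53.6. The gene level is the divisor of the share, and Mesp1, Mixl1 and T had close PROMPT levels. The order of their shares is thus set by their gene levels. Over all pairs with gene reads the median share was lower, 0.167%, and the pairs were not matched more closely to the level of each gene. Gene levels were not divided by length in these shares. The genes differ in span from 1548 bp for Mesp1 to 45632 bp for Kdr. The part of gene length in the order and percentiles of the shares was not tested. The summed PROMPT level was 8.11% of the summed gene level of the 8, and the median of the 8 ratios was 3.35%.

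The window of 1000 bp upstream of Tbx6 holds part of another gene, Ypel3 (chr7:126776955-126780514), which is transcribed on the same strand as Tbx6, ends 968 bp before it and had a baseMean of 443. By the study's methods counting took strand into account, and a PROMPT of Tbx6 would lie on the strand opposite to both genes. The part of Ypel3 in the value of the Tbx6 PROMPT was not tested. No annotated gene lies in this window of T, Mixl1, Mesp1, Kdr, Foxc1, Meox1 or Tal1. The windows of Gsc and Hand2, which had no PROMPT row matched, hold the non-coding genes Gm10000 and Hand2os1, which run away from them. Hand2 itself overlaps Hand2os1 and Meox1 overlaps Gm11551, each on the opposite strand.

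**Figure D3:**
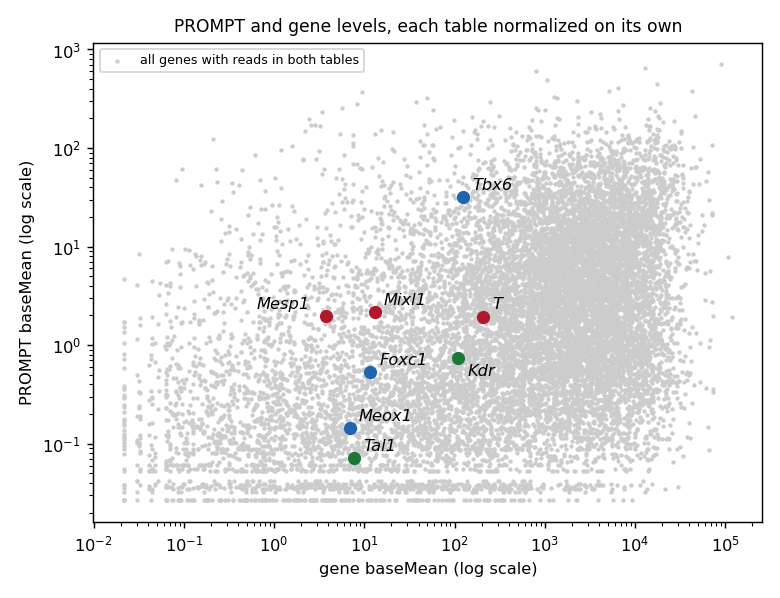
PROMPT level against gene level, both as pooled baseMean on log axes and each from a table normalized on its own, for 8 of the 10 genes (coloured by tissue: streak red, paraxial blue, blood and endothelial green) and all other genes with reads in both tables (grey). The PROMPT of Tbx6, at 31.8, lies above those of the other seven, and Mesp1, Mixl1 and T have PROMPT levels near 2 at gene levels from 3.73 to 208.

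Promoter sequences were at hand for 8 of the 10 genes, in 9 windows, since RefSeq gives Tal1 a second start 1385 bp downstream of the first; Mixl1 and Meox1 were not matched. CpG content was taken as observed over expected in the 250 bases before the start, which is near 1 where CpG has not been lost. It was highest for Gsc (1.06), Hand2 (0.993) and Foxc1 (0.928), at percentiles 96.7, 94.0 and 90.2 of all 32851 windows. It was intermediate for the second window of Tal1 (0.740), for Kdr (0.676), for T (0.594) and for the first window of Tal1 (0.446), and lowest for Tbx6 (0.281, percentile 40.6) and Mesp1 (0.105, percentile 15.6). With the higher of its 2 windows taken for Tal1, the median of the 8 genes was 0.708, at percentile 73.8; over all 9 windows it was that of Kdr, 0.676, at percentile 71.5. By either window of Tal1 6 of the 8 genes lay above the median of all windows, 0.373. Tbx6 and Mesp1, the lowest in CpG content, were also the 2 genes with the highest PROMPT share, a description over the 6 genes that had both values. The RefSeq start used lies inside the Gencode gene by 198 bp for Mesp1, 94 bp for Gsc, 13 bp for Foxc1 and 3 bp for Kdr. For the second window of Tal1 it lies inside by 1385 bp. These windows thus hold sequence that Gencode places within the gene, that of Mesp1 for the most part and the second of Tal1 wholly.

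**Figure D4:**
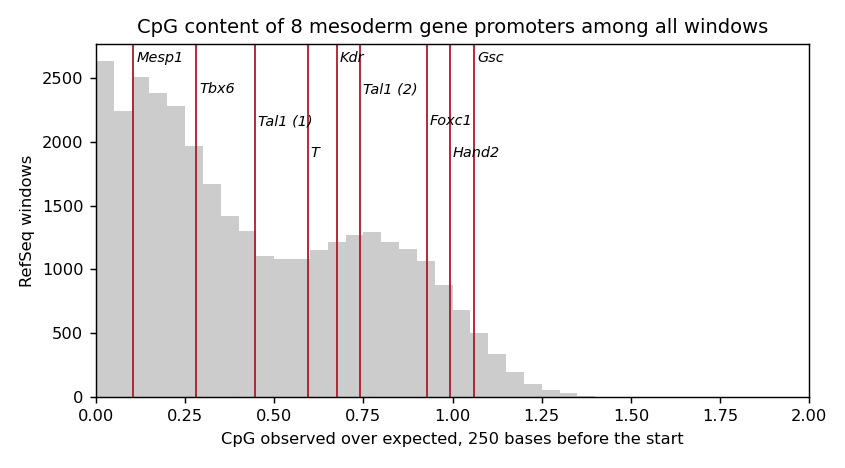
CpG observed over expected in the 250 bases before the start, for all 32851 RefSeq windows (grey histogram, number of windows per bin) and for the 9 windows of 8 mesoderm genes (red lines, with the windows of Tal1 numbered). Mesp1 and Tbx6 lie left of the median of 0.373, and Foxc1, Hand2 and Gsc lie at the right, from 0.928 to 1.06.

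Motifs were searched on both strands in the same 250 bases, with positions counted from the RefSeq start. The GC box GGGCGG was present in 6 of the 8 genes (T, Gsc, Foxc1, Hand2, Kdr and Tal1) and in 32.7% of all windows; those of Gsc and Tal1 lay inside the Gencode gene. The CCAAT box CCAAT was present in 3 (T, Foxc1 and Hand2) and in 33.8%. The TATA box TATAAA was found in 2, in Tbx6 and, at 164 bases before the start, in Gsc, against 12.4% of windows. The E-box CANNTG, which bHLH factors such as Mesp1, Hand2 and Tal1 bind, was found in 5 (T, Gsc, Mesp1, Hand2 and Kdr) and in 66.2% of windows. The GATA motif AGATAA occurred in 2 (Hand2 and Tal1) against 9.99%, and the homeodomain core TAATTA in 2 (Tbx6 and Hand2) against 4.84%; in Hand2 these motifs overlap. The TCF/LEF motif CTTTGNT of Wnt signalling occurred in Mesp1 alone, 31 bases before the RefSeq start and thus inside the Gencode gene, and in 16.0% of windows. Neither the T-box motif AGGTGTGA (1.12% of windows) nor the octamer ATGCAAAT (1.60%) was in any of the 8. These matches are letters in a window and describe no binding.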

How the data were processed

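TT-seq was measured in 18 libraries, 3 in each of 6 groups. As described in the study's methods, the authors aligned trimmed read pairs to mm10 with STAR, keeping uniquely mapped pairs, counted them with strand by featureCounts over genes and PROMPTs, and fitted DESeq2; the notes deposited with the tables name Gencode vM25 as the source of both. The deposited gene and PROMPT tables hold baseMean, a signal in normalized counts pooled over libraries, which was used, and the authors' own comparison (log2 fold changes with standard errors, p-values and adjusted p-values), which was not; no comparison of groups was therefore made and no test was run. Tables of other non-coding RNAs name no gene and were not used. Libraries were mapped to groups by their labels.

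Gene rows were matched by Ensembl gene ID, without its version, to Gencode vM21 (GRCm38, the same build) for coordinates and exon length, which 21817 genes had and 42 had not. Genes with reads and a length (20140) formed the background, and levels between genes were compared per kb of exons and, as an alternative, of gene span; baseMean ranked genes within lists. Depth came from the baseMean values up to 0.2 that recur at least 0.09 times as often as the most frequent one, limits set after the values were seen; they bound reads and give no interval. The functions for percentiles, CpG content and single-read values were tested on simulated data, and the other steps had no such test. Per gene list the 2 highest and 2 lowest genes by baseMean are named, and for each of the 10 genes the 2 nearest in level. The 10 genes and the lists were chosen with earlier results of these data known. Promoters came from RefSeq (GRCm38.p6). Alternatives were the background, length, level limits, PROMPT limits and window. Python 3.11.15, numpy 2.4.6, pandas 2.3.3 and matplotlib 3.10.9 were used.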

Additional observations from a re-analysis of the deposited data

How the results depend on the processing

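Of 15 alternatives, 4 left the value within its limits and 11 moved it. The limits were an interval for percentiles, a set ratio for counts and equality for shares. Among the 4 was the PROMPT share from the highest row per gene, which could not differ, since each gene had 1 row. By the ratio alone, 38 of 45 pairs in order and 6 in place of 8 PROMPTs at a limit of 0.5 were within limits. The percentile of the 10 genes' median level, 24.6, became 14.1 when the background was limited to baseMean values from 1 upwards, 3.25 from 10 upwards, and 33.6 per kb of gene span; with baseMean as deposited it was 24.5. At a limit of 10 in place of 100, 6 of the 10 genes (60%) and 31 of the 46 other mesoderm genes (67.4%) were counted. Both shares lay near the 70.6% of all genes at that limit. At 1000 none (0) of the 10 and 1 of the 46 (2.17%) were counted, against 37.3% of all genes. PROMPTs of at least 1 numbered 4 in place of 8. The PROMPT share was 3.35% as a median of ratios against 8.11% as a ratio of sums, and the CpG percentile 72.8 over 300 bases, and 71.5 with both windows of Tal1, added after seeing the data, against 73.8. These limits and backgrounds move the values by their own construction. Leaving out a library was not possible, since each row holds 1 pooled mean. No paired analysis was possible because no result comes from a test. Depth limits the PROMPTs of Tal1 and Meox1 most, with at most 2 and 5 reads.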
